A study of Drosophila melanogaster with 3 samples.

Results

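The genes described here are 7 small heat shock protein genes of Drosophila melanogaster: Hsp22, Hsp23, Hsp26, Hsp27, Hsp67Ba, Hsp67Bc and l(2)efl. They were taken by name as genes of the alpha-crystallin type, and each symbol was matched by FlyBase ID to 1 row of a count table that listed 17558 genes. The study asked how a long noncoding RNA, mimi, organises granules in neurons, and these libraries are its mRNA sequencing of wild-type heads. All 3 libraries form 1 group: heads of untreated, wild-type adults raised at 25°C, anaesthetised with CO2 and decapitated. The strain is open, because the 2 sources conflict. The series description gives CantonS, whereas the study's methods define its wild-type flies as w1118 and do not list CantonS. The study used males and females, and the sex, age and number of flies behind each library are not given in the sources used here. No heat-shocked or mutant sample was analysed, so the comparisons are between genes and between replicates, and nothing says whether the replicates came from separate cultures.

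Small heat shock proteins are ATP-independent chaperones that share an alpha-crystallin domain, assemble into oligomers and hold unfolding proteins until the Hsp70 machinery refolds them. In flies, heat shock factor induces many of them upon heat stress, and several are also switched on by ecdysone during development and rise with age. The proteins work in different places: Hsp22 in mitochondria, Hsp27 in the nucleus, and Hsp23 and Hsp26 in the cytosol. Hsp67Bc is related to human HSPB8 and binds the co-chaperone Starvin, and l(2)efl (lethal (2) essential for life) is related to the human alpha B-crystallin group.

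The libraries held 8332583, 7349123 and 6299265 counts (replicates 1, 2 and 3), so that 1 count was worth between 0.120 and 0.159 counts per 1000000 counts (CPM). Eye and brain genes were abundant in every library, with summed levels of 39416 to 42651 CPM for 4 photoreceptor genes and of 3162 to 3736 CPM for 4 neuronal genes. Testis and ovary markers summed to at most 0.816 CPM and 0.136 CPM, and Mst98Ca, nos and bam were at 0. Replicate 2 stood apart from the others. It had the lowest share of mitochondrial counts (3.88% against 7.20% and 6.62%), the highest sum of 5 fat body markers (30211 CPM against 20715 and 22373 CPM) and the lowest sum of the neuronal markers (3162 CPM against 3525 and 3736 CPM). The fat body sum was carried by Yp1, Yp2 and Yp3, which encode yolk proteins, while Lsp2 of that list was highest in replicate 1. Among the neuronal genes, elav, nSyb and Syt1 were lowest in replicate 2, while brp was level with replicate 1 (575.0 against 574.7 CPM). The photoreceptor sum was highest in replicate 2 by CPM (42651 against 39416 and 41345 CPM), but in replicate 3 after TMM scaling. The sum of 5 muscle markers was 5158, 4185 and 4424 CPM in replicates 1, 2 and 3 and was carried by Mhc. By CPM, Mhc was the only one of the 5 that was lowest in replicate 2. After TMM scaling, up and Act88F were lowest there as well. In whole heads, fewer cells of a type and less RNA per cell cannot be told apart.

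Of the 7 genes, 6 had counts in every library and Hsp22 had none. Levels of different genes are ranked per kilobase of exon unless another scale is named. l(2)efl was the most abundant of the 6 genes with counts, at 76.8 CPM per kilobase ± 6.92 (SD, n = 3). Hsp23 followed at 12.8 ± 1.09, close to the median detected gene (12.3 CPM per kilobase), and Hsp67Ba, Hsp67Bc, Hsp26 and Hsp27 lay below that median.

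**Figure D1:**
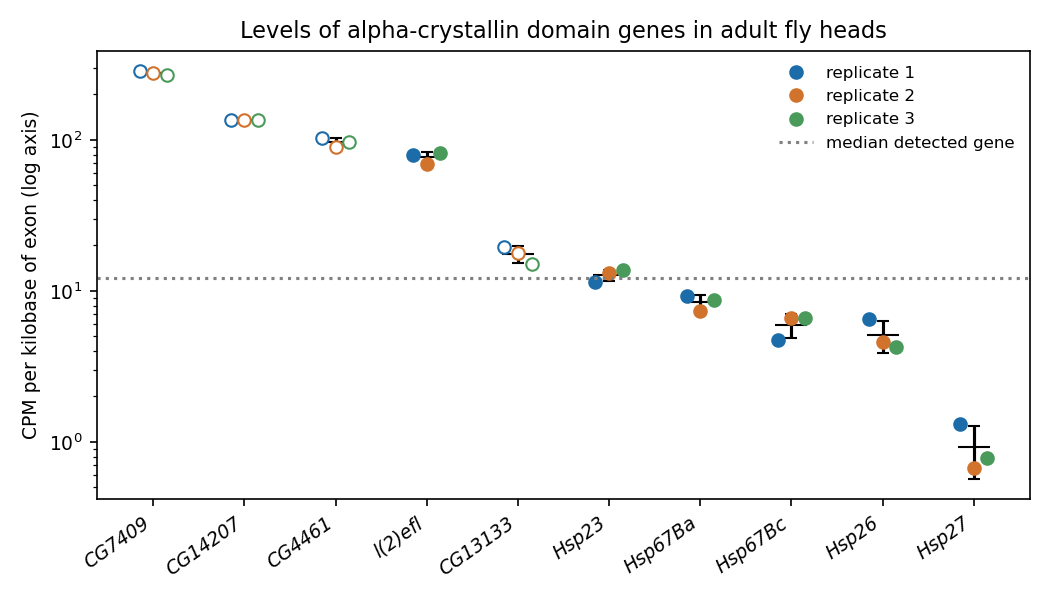
CPM per kilobase of exon (log axis) of the 10 alpha-crystallin domain genes with counts, ordered by mean level; filled points are the small heat shock genes named in the text, open points are 4 further genes of the domain, colours are the 3 libraries, black bars are mean ± SD, and the dotted line is the median detected gene. The mean of l(2)efl is 76.8 CPM per kilobase and that of Hsp27 is 0.923, with the means of the remaining small heat shock genes between 5.12 and 12.8.

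l(2)efl (FBgn0011296) lies apart from the others, on chromosome arm 2R at 23684651 to 23685543 on the minus strand in dm6 coordinates. It has 3 exons, 741 bp of exon and 187 residues. It had 489, 376 and 384 counts in replicates 1, 2 and 3, or 58.7 CPM (Wilson 95% interval 53.7 to 64.1), 51.2 CPM (46.2 to 56.6) and 61.0 CPM (55.2 to 67.4). Replicate 2 was the lowest, as it was for 36% of all genes tested (TMM-scaled). By CPM, the sums of the neuronal, muscle and glial markers were also lowest there. The glial sum (741, 706 and 748 CPM in replicates 1, 2 and 3) followed Eaat1, while repo, moody and wrapper were lowest in replicate 1. The photoreceptor, fat body and haemocyte sums were lowest in replicate 1. The part of any cell type in the level of l(2)efl was not tested, and its intervals in all 3 libraries overlapped. Per kilobase, l(2)efl exceeded 91.0% ± 1.11 of the detected genes (SD, n = 3). Of its exon bases, 75 lie opposite the exons of St3, a sulfotransferase gene on the plus strand that had 311, 316 and 261 counts.

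The other 6 genes lie within 14.2 kb of chromosome arm 3L, from 9371511 to 9385694, in the small heat shock gene cluster of cytological region 67B. Hsp22 apart, each is a single exon. The order from left to right is Hsp67Bc, Hsp22, Hsp26, Hsp67Ba, Hsp23 and Hsp27. Hsp67Bc, Hsp26 and Hsp67Ba are on the minus strand, and Hsp22, Hsp23 and Hsp27 are on the plus strand.

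**Figure D2:**
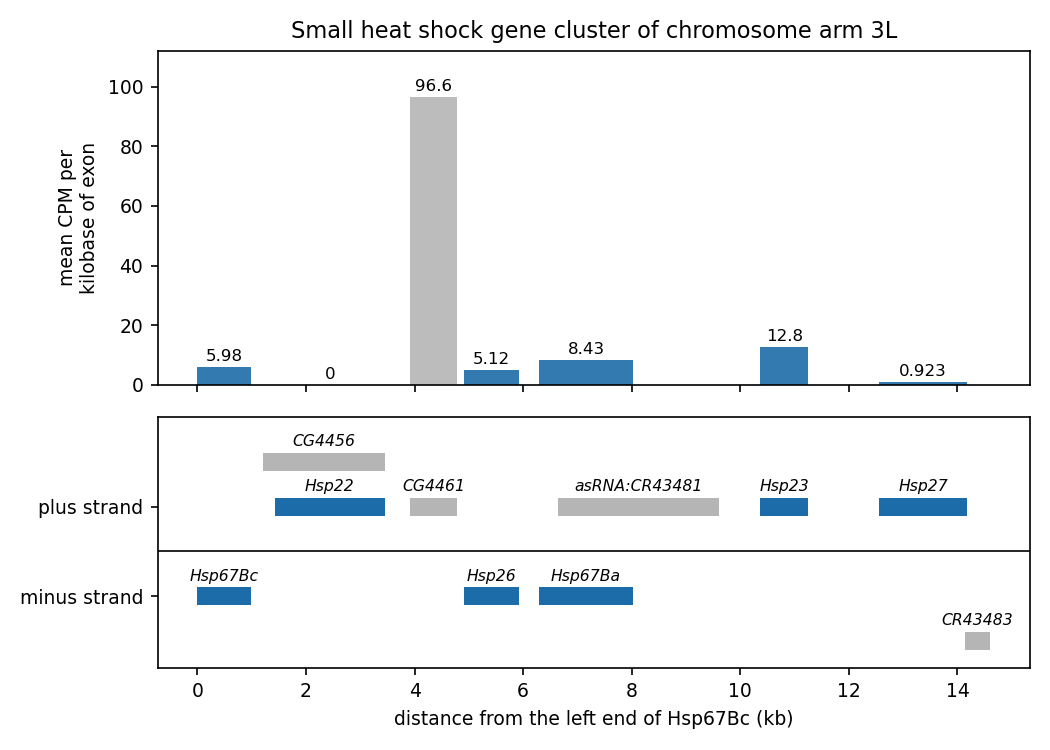
Upper panel, mean CPM per kilobase of exon (n = 3) drawn over the span of each gene; lower panel, gene spans by strand, with distance in kilobases from the left end of Hsp67Bc. Blue marks the small heat shock genes named in the text and grey the other counted genes; CG4461 reaches 96.6 CPM per kilobase between Hsp22 at 0 and Hsp26 at 5.12.

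Hsp23 (FBgn0001224, 9381882 to 9382765, 884 bp, 186 residues) encodes a cytosolic chaperone. It had 85, 85 and 76 counts, or 10.2 CPM (8.25 to 12.6), 11.6 CPM (9.35 to 14.3) and 12.1 CPM (9.64 to 15.1). The 3 libraries were close, and Hsp23 exceeded 51.6% ± 2.67 of the detected genes per kilobase (SD, n = 3).

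Hsp67Ba (FBgn0001227, 9377802 to 9379534, 1733 bp) encodes the longest protein of the 7 by annotation, with 445 residues. It had 133, 94 and 95 counts, or 16.0 CPM (13.5 to 18.9), 12.8 CPM (10.5 to 15.7) and 15.1 CPM (12.3 to 18.4). As for l(2)efl, replicate 2 was the lowest. Its level was 8.43 CPM per kilobase ± 0.945 (SD, n = 3), above 39.0% ± 3.96 of detected genes. The antisense RNA gene asRNA:CR43481 covers 1316 of its exon bases, or 75.9%, on the opposite strand. That gene had 2, 0 and 3 counts. The library kit keeps the strand, but the strand setting of the counting is not given in the sources used here. Among protein-coding genes with at least 50% of their exon bases so covered and none shared on their own strand, 49 of 275 (17.8%) had no count in any library, against 1843 of 9292 (19.8%) of those with no shared exon base.

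Hsp67Bc (FBgn0001229, 9371511 to 9372497, 987 bp, 199 residues), the Starvin partner, had 39, 48 and 41 counts, or 4.68 CPM (3.42 to 6.40), 6.53 CPM (4.93 to 8.66) and 6.51 CPM (4.80 to 8.83). Replicate 1 was the lowest. The mean was 5.98 CPM per kilobase ± 1.08 (SD, n = 3), above 30.6% ± 3.58 of detected genes.

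Hsp26 (FBgn0001225, 9376418 to 9377427, 1010 bp, 208 residues), which encodes a cytosolic chaperone also made in the germ line, had 55, 34 and 27 counts, or 6.60 CPM (5.07 to 8.59), 4.63 CPM (3.31 to 6.46) and 4.29 CPM (2.95 to 6.24). Replicate 1 was the highest, the opposite of Hsp67Bc. The mean was 5.12 CPM per kilobase ± 1.24 (SD, n = 3), above 27.6% ± 5.11 of detected genes.

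Hsp27 (FBgn0001226, 9384063 to 9385694, 1632 bp, 213 residues), whose product is nuclear, was the lowest of the 6 genes with counts. It had 18, 8 and 8 counts, or 2.16 CPM (1.37 to 3.41), 1.09 CPM (0.552 to 2.15) and 1.27 CPM (0.644 to 2.51). Replicate 1 was again the highest, although the intervals overlapped. Its 0.923 CPM per kilobase ± 0.351 (SD, n = 3) exceeded 7.93% ± 2.67 of detected genes. CR43483, which covers 49 of its exon bases on the opposite strand, had no count.

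Hsp22 (FBgn0001223, 9372931 to 9374964, 1900 bp, 174 residues) had 0 counts in each library, for which the floor of 3 counts is 0.36, 0.408 and 0.476 CPM. No level of Hsp22 can be given from this value. All 1900 of its exon bases are also exon bases of CG4456, on the same strand, a gene that was formerly called Hsp67Bb. CG4456 has 209 further bases of its own and was at 0 as well. In the whole table, 277 of 286 protein-coding genes whose exon bases were all shared on the same strand were at 0 in every library (96.9%), as against 19.8% of those that share none. How the counting treated reads that fall in more than 1 gene is not given in the sources used here, and whether Hsp22 is transcribed in these heads was not tested.

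To ask which steps in the order of levels exceed the spread between libraries, each gene was compared with the next lower one within each library. The order came from the mean levels of these same libraries, so the sign of each mean ratio was largely set beforehand. Only the size of a step against its spread is informative. A step was called larger than the spread when the mean log2 ratio of CPM per kilobase exceeded 2 SD with the same sign in 3 of 3 libraries. With 3 libraries, the exact two-sided sign-flip permutation test cannot go below p = 0.25 (0.3125 after adjustment over the 5 pairs). l(2)efl exceeded Hsp23 by a log2 ratio of 2.58 ± 0.19 (SD, n = 3), or 5.99-fold, and Hsp26 exceeded Hsp27 by 2.46 ± 0.23, or 5.50-fold. Both steps passed the rule at the smallest exact permutation p of 0.25. Hsp23 exceeded Hsp67Ba by 0.60 ± 0.25, or 1.52-fold, and also passed at that p, but this step depended on the length used. It turned to -0.37 without division by length and to -1.45 when only exon bases free of any other gene were counted as length. Without replicate 3 it was 0.58 ± 0.35 and no longer passed.

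The steps in the middle did not exceed the spread. The log2 ratio of Hsp67Ba to Hsp67Bc was 0.50 ± 0.41 (SD, n = 3). It passed the rule at 1.31 without division by length, and at 2.55 with the unshared bases as length. In that setting the counts stayed those of the whole gene, so only the divisor changed. The log2 ratio of Hsp67Bc to Hsp26 was 0.23 ± 0.60, with the 2 genes in the opposite order in replicate 1 (exact permutation p = 0.5, adjusted 0.5), and it became 0.58 and passed without that library. From the top to the bottom of the order, l(2)efl exceeded Hsp27 by a log2 ratio of 6.37 ± 0.44, or 82.7-fold.

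Together the 7 genes, of which Hsp22 added none, took 819, 645 and 631 counts, or 0.00983%, 0.00878% and 0.0100% of all counts. The mean was 95.4 CPM ± 6.69 (SD, n = 3), with replicate 2 the lowest. Without that library the share was 0.00992%, against 0.00954% over all 3. l(2)efl alone made up 59.6% ± 1.28 of these counts and 69.8% ± 1.44 of the summed CPM per kilobase (SD, n = 3), and without it the share fell to 0.00385%. Hsp23 contributed 11.6% ± 1.33 of the summed CPM per kilobase and Hsp27 0.835% ± 0.296.

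The fly genome encodes further proteins with the alpha-crystallin domain, and 5 of these genes were read for comparison: CG4461, CG7409, CG13133, CG14207 and CG43851. CG43851 had no count, and the other 4 were all more abundant per kilobase than Hsp23 in every library. For CG13133 the log2 ratio to Hsp23 was 0.45 ± 0.30 (SD, n = 3), which does not exceed 2 SD, and it was 0.15 in replicate 3. CG7409 stood at 277 CPM per kilobase ± 7.88, CG14207 at 135 ± 0.564, CG4461 at 96.6 ± 6.95 and CG13133 at 17.5 ± 2.23 (SD, n = 3). l(2)efl thus held the fourth place in every library, between CG4461 and CG13133. Of the 12 genes' counts, the named small heat shock genes held 15.5%, 14.6% and 16.3%. On the per kilobase scale, the 5 further genes summed to 4.79 times the level of the named genes, Hsp22 and CG43851 adding none.

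CG4461 lies inside the 67B cluster, directly to the left of Hsp26. It had 744, 568 and 528 counts, where Hsp26 had 55, 34 and 27. At 103, 89.5 and 97.0 CPM per kilobase it exceeded 92.7% ± 0.720 of detected genes (SD, n = 3), while Hsp26 exceeded 27.6%.

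The spread of each gene between replicates was set against that of genes at a similar level, with edgeR's quasi-likelihood fit over 9049 genes. Hsp22 and Hsp27 did not pass its filter on low counts. Of the 5 tested genes, 0 passed an adjusted p of 0.05 (Benjamini-Hochberg), against 0.32% of all genes tested, and 0 had an unadjusted p under 0.05, against 4.64%. DESeq2 marked 0 of them as dispersion outliers, against 0.875% of its genes. The lowest edgeR p values were 0.186 for l(2)efl and 0.200 for Hsp26, both with an adjusted p of 0.992. A p above the threshold in 3 libraries does not show that replicates did not differ. In every one of the 6 genes with counts, the Wilson intervals of the 3 libraries overlapped, which was so for 74.8% of all genes tested. Hsp27 is not among the genes tested, and that share is not matched for level. The intervals widen relative to the level as counts fall, so genes with few counts overlap more readily.

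**Figure D3:**
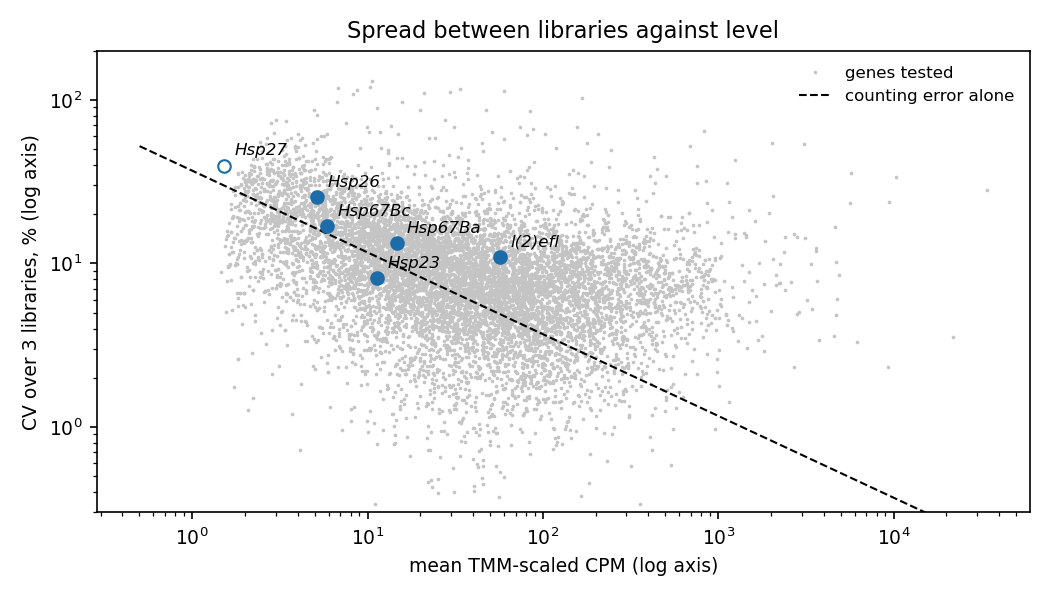
Coefficient of variation over 3 libraries (%, log axis) against mean TMM-scaled CPM (log axis) for the genes tested (grey), with the small heat shock genes in blue and Hsp27, which did not pass the filter, as an open circle; the dashed line is the variation from counting alone at the mean depth. Hsp23 lies below the line at 8.15%, l(2)efl above it at 11.0%.

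The coefficient of variation (CV) of TMM-scaled CPM was 8.15% for Hsp23, 11.0% for l(2)efl, 13.2% for Hsp67Ba, 16.9% for Hsp67Bc, 25.5% for Hsp26 and 39.6% for Hsp27. For Hsp23 this was less than the 11.0% that counting alone gives at its depth. For l(2)efl, the gene with most counts, it was above the 4.90% of counting alone, and 80.3% of the 3036 genes within 2-fold of its level had a lower CV. For Hsp26 the corresponding share was 81.5% and for Hsp23 32.8%.

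The 6 genes did not share a highest library. After TMM scaling, Hsp26, Hsp27 and Hsp67Ba were highest in replicate 1, and Hsp23, Hsp67Bc and l(2)efl in replicate 3. Of the 5 genes tested, 2, 0 and 3 were highest in replicates 1, 2 and 3, while the shares of all genes tested were 30.6%, 35.8% and 33.6%. The lowest level fell in replicates 1, 2 and 3 for 2, 2 and 1 of these 5, against 29.1%, 36% and 34.8% of all genes tested. With so few genes, neither split is a result about the family. Scaled by total counts, Hsp67Bc was highest in replicate 2. Within the cluster, Hsp26 stood 0.34 above its mean of log2(TMM-scaled CPM + 1) in replicate 1 and Hsp67Bc stood at -0.25. Counting alone gives these genes a CV of 16.1% and 15.3%, and among genes within 2-fold of their level the CV reached 39.3% and 36.2% at the upper end of the middle 90%, above the 25.5% of Hsp26 and the 16.9% of Hsp67Bc.

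**Figure D4:**
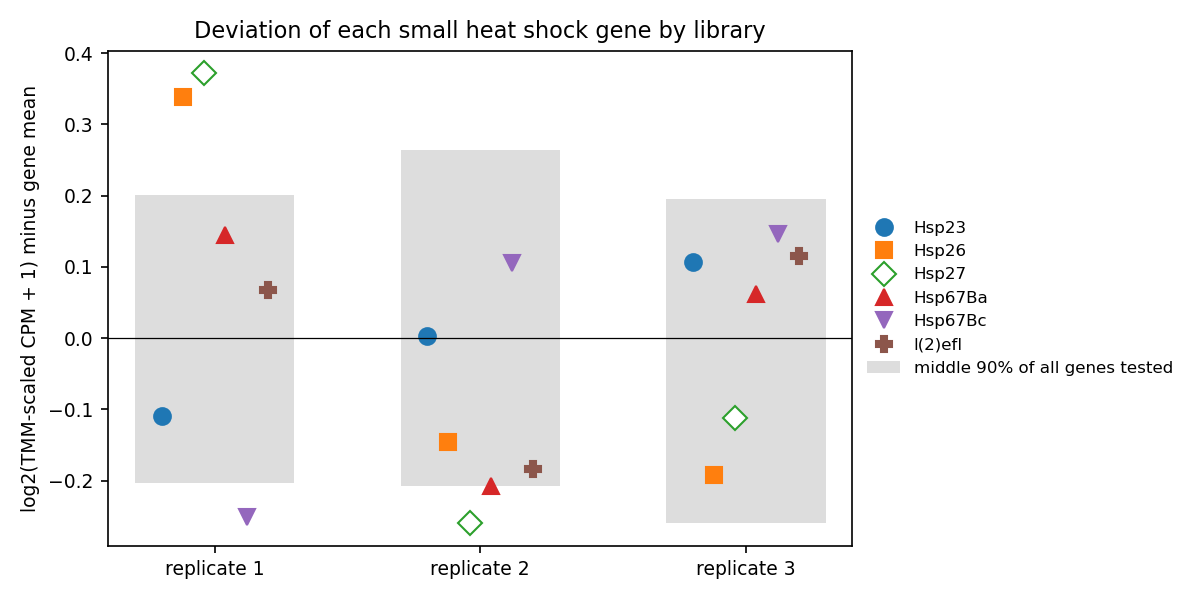
Deviation of log2(TMM-scaled CPM + 1) from the gene's mean over 3 libraries, for each small heat shock gene with counts; grey bars hold the middle 90% of the 9049 genes tested, and the open diamond is Hsp27, which did not pass the filter. The bars cover genes at all levels, most with more counts than these; in replicate 1, Hsp26 (0.34) and Hsp27 (0.37) lie above the bar and Hsp67Bc (-0.25) lies below it.

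Among tested genes within 2-fold of its mean level, the gene whose deviations over the 3 libraries lay nearest to those of l(2)efl was ths, an FGF ligand gene, at a distance of 0.00142 on the log2 scale, out of 3036 candidates. It had 102, 85.2 and 105 TMM-scaled CPM, where l(2)efl had 59.6, 49.9 and 61.6. For Hsp26 the nearest of 1680 was CG43448 (distance 0.0164), and for Hsp23 the nearest of 2613 was Rtel1, a DNA helicase gene (0.00689). SmydA-3 was nearest to Hsp67Ba (0.00639) and Lime to Hsp67Bc (0.0107). No gene of the family was among these. The limit of 2-fold left few genes of the family as candidates, so this does not tell whether they vary together. Moreover, 3 libraries hold too few points to tell genes apart by such a pattern.

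The regulators and partners of the family were all present. Hsf, which encodes heat shock factor, had 521, 508 and 421 counts, or 62.5, 69.1 and 66.8 CPM. stv, which encodes Starvin, stood at 37.4 CPM per kilobase ± 2.31 (SD, n = 3), above its partner Hsp67Bc at 5.98. The others were Trl (GAGA factor) at 2.93 CPM per kilobase, foxo at 22.7, and the ecdysone receptor subunits EcR at 8.70 and usp at 16.7. By the edgeR test, 0 of these 6 genes were called for variation between replicates.

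Of the 12 other heat shock genes read, the 6 inducible Hsp70 genes had between 0 and 9 counts per library and did not pass the filter. Hsp70 copies are nearly identical, so their reads may be split or lost in counting, and their levels are uncertain. Hsp68 was at 5.84 CPM per kilobase ± 0.927 (SD, n = 3), in the range of Hsp67Bc and Hsp26. The constitutive Hsc70-4 was at 605 CPM per kilobase ± 52.0 and Hsp83, the fly Hsp90, at 263 ± 35.4. DnaJ-1, an Hsp40 co-chaperone that passes clients to Hsp70, stood at 72.2 ± 2.96, near l(2)efl at 76.8. Of the 6 genes that passed the filter, 0 were called by the edgeR test.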

How the data were processed

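Per the labels, total RNA was extracted from heads with QIAzol, libraries were made from 150 ng of it (TruSeq Stranded mRNA, poly(A) selected), reads were mapped with STAR 2.7.4a to dm6, and featureCounts (Subread) counted them. The study ran its RNA-seq through snakePipes. The authors deposited raw counts per FlyBase gene, 1 column per library, and 0 columns were left unused. Symbols, positions, exon unions and coding lengths came from Ensembl release 115 (BDGP6, dm6 coordinates), a later release than the authors used, and 17252 of 17558 IDs matched (98.3%).

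CPM were taken over all counted genes and divided by kilobases of exon for comparisons between genes. Exons shared by several genes were counted in the length of each. A gene was detected with at least 10 summed counts (10100 genes, 9901 with a length). Wilson 95% intervals and the floor of 3 counts cover counting error only, since PCR copies could not be removed by molecular identifiers. Ratios had 0.5 count added to each gene. edgeR 4.0.16 (R 4.3.3) was fitted with TMM, filterByExpr and no covariate. The quasi-dispersion was tested against its prior by an upper-tail F test with Benjamini-Hochberg adjustment over 9049 genes. DESeq2 1.42.0 was an alternative, as were total-count and DESeq2 scaling, other lengths and filters, and leaving out each library. p-values measure only the spread between these samples, which may be technical.

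Chi-square per degree of freedom between libraries was 18.1, 5.02 and 16.4 (replicates 1 and 2, 1 and 3, 2 and 3), so no library was a copy of another. The named genes were the 7 small heat shock genes, 5 further alpha-crystallin domain genes, genes whose exons overlap them, 6 regulators and partners, 12 other heat shock genes, and for each tested gene those nearest in pattern within 2-fold of its level. The genes, lists and tests were chosen with earlier results of these data known. Marker lists covered neurons, photoreceptors, glia (706 to 748 summed CPM), fat body, muscle, haemocytes (267 to 389), testis and ovary. The ovary marker vas was not analysed here. By the edgeR test, Lsp2 of the fat body list and Act88F of the muscle list were called for variation between libraries, and 0 other list genes were.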

Additional observations from a re-analysis of the deposited data

How the results depend on the processing

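Over 18 results and 124 alternative values, 108 were labelled as unchanged, including all 42 member levels. Levels have no threshold to pass, and those of Hsp22 were 0 in every setting. The longest transcript of each of the 6 genes with counts is as long as its summed exons. Ratios by that length therefore repeat the main values and could not change. The same holds for Hsp67Bc to Hsp26 with unshared bases as length. The number of steps in the order that passed the rule was 3 in the main setting. It ran from 2 to 4 in alternatives that were labelled as unchanged. The log2 ratio of Hsp23 to Hsp67Ba turned to -0.37 without division by length and to -1.45 when whole-gene counts were divided by the unshared exon length. The share of counts held by the 7 genes was 0.0616% with the 5 further alpha-crystallin genes and 0.00385% without l(2)efl, and ran from 0.00930% to 0.00992% with 1 library left out. The median rank of the 6 genes with counts was 34.8% per kilobase, 26.2% without division by length, 49.0% when genes down to 1 count were included and 27.3% when each library had to reach 10. It ran from 33.7% to 35.6% with 1 library left out. The whole table had 29 of 9049 tested genes called for replicate variation (0.32%). There were 118 of 12909 with every gene that had a count, and 113 of 12909 as DESeq2 outliers (0.875%). With 1 library left out there were from 44 of 9182 to 57 of 9095. Among the small heat shock genes, 0 were called under each of these settings. With 5 or 6 of them tested by edgeR and so few genes called in the whole table, this is no result about the family. The unshared lengths and the sum without l(2)efl were chosen after seeing the data. No paired analysis was possible because the design has 1 group. Depth limits Hsp27 most, at 8 to 18 counts per library.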
